A study of Mus musculus with 30 samples.

Results

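The D1 identity genes described here are 8 genes by which D1 receptor-expressing medium spiny neurons of the striatum are commonly recognised: Drd1, Drd3, Chrm4, Pdyn, Tac1, Isl1, Eya1 and Sfxn1. They were taken by name, with earlier results of these data known, as the rows of the count table whose Ensembl identifiers map to these symbols in GENCODE release M21. All 8 were found among the 55335 genes of the table, and all 8 were among the 19368 genes with enough counts to be tested. The libraries hold RNA bound to tagged ribosomes (RiboTag, RT), pulled down from nucleus accumbens punches of female mice. D1-Cre-RT mice carried the tag in D1 neurons, and A2A-Cre-RT mice carried it in neurons that express the adenosine A2A receptor, the D2 receptor-expressing class, whose libraries are called D2 here. Mice of each genotype were unstressed controls (Control) or went through chronic witness defeat stress, in which an animal watches others being defeated, and were then sorted by social interaction score into Resilient and Susceptible. Each of the 6 groups had 5 libraries, each a pool of 4 mice, with tissue taken 24 h after the social interaction test. The ages of the mice are not given in the labels, and all groups, Control included, carry Cre and the tag.

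Medium spiny neurons are the output neurons of the nucleus accumbens and fall into a D1 class and a D2 class. Dopamine acting on the D1 receptor raises cyclic AMP through the G protein Gs and Golf family, and acting on the D2 class through Gi it lowers cyclic AMP. D1 neurons make the peptide precursors for dynorphin and substance P, D2 neurons make the one for enkephalin, and in the accumbens dynorphin acting on kappa opioid receptors is known for its part in aversive states.

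Gene counts per library ran from 28996168 to 65882152. Among the D1 libraries, D1 Susceptible replicate 1 stood apart, with 54.9% of its gene counts on 1 feature, Gm42418. D2 Susceptible replicates 1 and 2 held 15822 and 16525 detected genes against 19440 to 22375 in the other 28 libraries. They also held counts of the Y-linked gene Ddx3y, 267 and 56 against 0 to 13 in the other libraries, although the labels give female mice, and D2 Susceptible replicate 1 held 144 counts of Uty against 0 elsewhere. The part of these counts in the D2 Susceptible values was not tested. The D2-class markers Drd2, Adora2a, Penk, Gpr6 and Sp9 summed to 1120.4 to 2771 CPM (gene counts scaled to a library total of 1000000) in the 15 D1 libraries and to 9792 to 12799 CPM in 13 of the 15 D2 libraries. The other two, D2 Control replicate 5 and D2 Resilient replicate 5, summed to 7287 and 4867 CPM.

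Drd1 and Sfxn1 are neighbours on chromosome 13 of GRCm38. Drd1 lies at chr13:54051183-54055705 on the minus strand and Sfxn1 at chr13:54071869-54108342 on the plus strand, with 16163 bases and 0 annotated genes between them. Pdyn (chr2:129686565-129699844, minus) and Chrm4 (chr2:91927249-91928688, plus) lie on chromosome 2, Tac1 at chr6:7554879-7565834 (plus), Isl1 at chr13:116298281-116309689 (minus), Drd3 at chr16:43754026-43822932 (plus) and Eya1 at chr1:14168954-14310235 (minus). No other annotated gene shares exon bases with any of the 8. The Chrm4 model in this annotation is 1440 bases long, and the RefSeq start of that gene lies outside it, and whether the deposited counts of Chrm4 cover exons beyond this model is not known, since the annotation release behind them is not given in the sources used here.

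The upstream sequences of Drd1, Pdyn, Tac1 and Sfxn1 are shown because these members passed the test between D1 and D2 libraries in all 3 conditions. RefSeq (GRCm38.p6) had an entry for 7 of the 8 members. The sequences are printed 5′ to 3′ on the gene's strand. They end at the RefSeq start (Pdyn and Sfxn1) or earlier, where the GENCODE gene begins (Drd1 and Tac1). Capitals mark matches to TGACG or GGGCGG on either strand. The regions are chr13:54055706-54055908 for Drd1, chr2:129699939-129700188 for Pdyn, chr6:7554811-7554878 for Tac1 and chr13:54071595-54071844 for Sfxn1.
Drd1: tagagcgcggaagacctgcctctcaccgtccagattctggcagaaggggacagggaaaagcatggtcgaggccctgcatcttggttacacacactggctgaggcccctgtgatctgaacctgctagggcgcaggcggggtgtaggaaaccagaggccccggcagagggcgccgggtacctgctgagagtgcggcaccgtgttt
Pdyn: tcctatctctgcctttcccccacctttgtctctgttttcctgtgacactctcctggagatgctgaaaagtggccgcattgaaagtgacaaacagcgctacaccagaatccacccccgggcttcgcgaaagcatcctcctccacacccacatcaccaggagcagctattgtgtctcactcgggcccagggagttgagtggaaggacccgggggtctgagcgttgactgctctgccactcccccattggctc
Tac1: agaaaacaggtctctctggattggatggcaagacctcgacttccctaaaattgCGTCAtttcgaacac
Sfxn1: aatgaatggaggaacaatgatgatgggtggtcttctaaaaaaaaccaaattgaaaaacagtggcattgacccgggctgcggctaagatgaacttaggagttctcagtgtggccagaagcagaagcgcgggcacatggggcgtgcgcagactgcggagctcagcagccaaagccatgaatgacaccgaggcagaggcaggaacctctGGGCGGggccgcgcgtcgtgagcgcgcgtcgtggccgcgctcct

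In the 250 bases before their RefSeq starts, no motif searched was found in all 4 genes. The motifs were the cyclic AMP response element TGACGTCA, its half-site TGACG (contained in the former), the TATA box TATAAA and the GC box GGGCGG, on both strands. Tac1 had half-sites 197 and 43 bases before its start and a GC box at 107. Sfxn1 had a GC box at 44 bases. The outermost promoters of Drd1 and Pdyn held no match, which says only that these letters are not in this window. Of 32851 promoters of that length in the same table, 17.8% held TGACG, 1.55% TGACGTCA, 12.4% TATAAA and 32.7% GGGCGG. A match is a description of the letters only.

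Within the D1 libraries the 8 genes spanned a wide range of abundance. CPM was divided by exon length in kilobases (RPKM) to compare levels between genes. In D1 Control, Tac1, the precursor of substance P and neurokinin A, had the highest level at 240.1 ± 24.2 RPKM (SD, n = 5). Pdyn, the precursor of dynorphins, followed at 199 ± 19.0 RPKM and Drd1, the D1 dopamine receptor, at 136 ± 21.2 RPKM. Chrm4, the Gi-coupled muscarinic M4 receptor, was at 32.7 ± 5.53 RPKM on its short model, and Sfxn1, a mitochondrial serine transporter, at 18.8 ± 2.65 RPKM. Isl1, a LIM-homeodomain transcription factor of developing D1 neurons, was at 8.68 ± 1.49 RPKM. Drd3, the Gi-coupled D3 dopamine receptor, and Eya1, a transcriptional co-activator and phosphatase, were lowest at 1.20 ± 0.563 and 0.681 ± 0.142 RPKM.

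**Figure D1:**
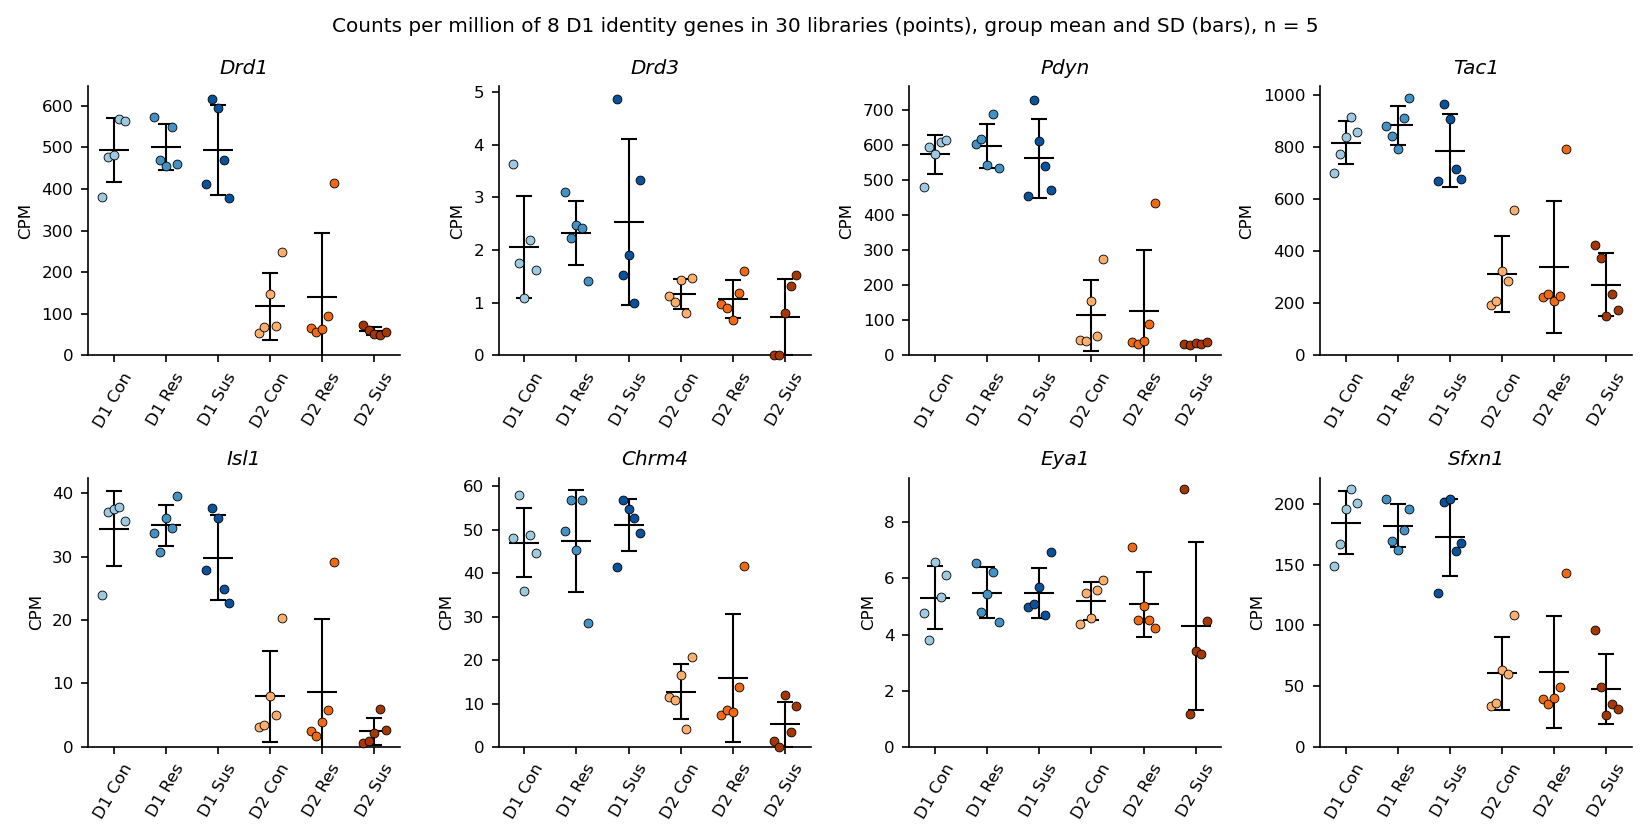
CPM (linear axis from 0) of each gene in each library, by group; bars are mean and SD of 5 libraries, cut at 0. For Drd1, Pdyn, Tac1, Isl1, Chrm4 and Sfxn1 D2 Resilient replicate 5 and D2 Control replicate 5 are the 2 highest D2 libraries, D2 Susceptible replicate 1 also lies high for Tac1 (423 CPM) and Sfxn1 (96.4 CPM), and the Eya1 ranges of the classes overlap.

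The order of the 6 groups was the same in kind for 6 of the 8 genes. For Drd1, Pdyn, Tac1, Isl1, Chrm4 and Sfxn1 the 3 D1 groups came first, and neighbouring D1 groups differed by less than the larger of their SDs. The step from the lowest D1 group to the highest D2 group was larger than that SD for these 6 genes. Among the D2 groups, Susceptible was lowest for all 8 genes, but only for Chrm4 was its step from the next group (D2 Control, 12.8 against 5.23 CPM) larger than the larger SD, 6.27 CPM. For Drd3 and Eya1 no step exceeded it. D2 Susceptible replicates 1 and 2 held 0 counts of Drd3, and 1.35 and 0 CPM of Chrm4. Replicates 3, 4 and 5 held 0.807, 1.32 and 1.53 CPM of Drd3, beside a D2 Control mean of 1.17 CPM. Their Chrm4 values were 11.9, 3.55 and 9.34 CPM. The places of Drd3 and Chrm4 in this order thus rest in part on D2 Susceptible replicates 1 and 2.

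The dopamine receptor Drd1, which gives the D1-Cre line its name, was higher in D1 than in D2 libraries in all 3 conditions. In D1 Control it was 380.2, 476, 482, 569 and 562 CPM in replicates 1 to 5. In D2 Control it was 54.7, 68.7, 147, 71.6 and 247 CPM. Every D1 Control library lay above every D2 Control library, with replicates 3 and 5 the highest of the latter. The fitted difference was 4.19-fold (log2 2.07, SE 0.447, edgeR adjusted p 0.00355), and log2 2.54 without D2 Control replicate 5. In Resilient mice Drd1 was 573, 469.5, 455, 548 and 461 CPM in D1 and 66.9, 56.4, 64.4, 95.2 and 414 CPM in D2. D2 Resilient replicate 5 lay close under the lowest D1 Resilient library, and the groups did not overlap. The difference was log2 1.85 (SE 0.444, edgeR adjusted p 0.00858), and 2.84 without that library. In Susceptible mice Drd1 was 412, 616, 594, 469.5 and 377 CPM in D1 and 74.4, 60.4, 51.8, 50.3 and 55.3 CPM in D2, an 8.45-fold difference (log2 3.08, SE 0.466, edgeR adjusted p 4.97e-05). The 2 ranges lay far apart, with 74.4 CPM the highest in D2 and 377 CPM the lowest in D1.

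Chrm4 was higher in D1 in every condition, but passed the test only in Susceptible mice. D1 Control libraries held 48.1, 57.9, 35.9, 48.8 and 44.5 CPM and D2 Control libraries 11.5, 10.8, 16.6, 4.15 and 20.7 CPM, with no overlap. The log2 difference of 1.88 (SE 0.640) had an edgeR adjusted p of 0.0724. In Resilient mice it was 1.58 (SE 0.634, edgeR adjusted p 0.180), where D2 Resilient replicate 5 at 41.7 CPM lay above D1 Resilient replicate 5 at 28.6 CPM. Without D2 Resilient replicate 5 it was 2.35 (edgeR adjusted p 0.0240). In Susceptible mice D1 libraries held 41.5, 56.8, 54.8, 52.7 and 49.3 CPM, and D2 libraries 1.35, 0, 11.9, 3.55 and 9.34 CPM, the lowest a count of 0 in replicate 2, which allows up to 0.0543 CPM. That difference was log2 3.28 (SE 0.681, edgeR adjusted p 0.00138), and 2.65 (edgeR adjusted p 0.00257) without D2 Susceptible replicates 1 and 2.

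Drd3 was a low-count gene with 0 to 231 counts per library, and its D1 and D2 ranges overlapped in each condition. Its Control means were 2.06 ± 0.964 CPM for the D1 class and 1.17 ± 0.281 CPM for the D2 class (SD, n = 5), with 2.33 ± 0.607 against 1.07 ± 0.353 in Resilient and 2.53 ± 1.57 against 0.731 ± 0.717 in Susceptible. The log2 differences were 0.82, 1.12 and 1.75, with edgeR adjusted p of 0.588, 0.510 and 0.0631. D2 Susceptible replicates 1 and 2 each had 0 Drd3 counts, which allows up to 0.0644 and 0.0543 CPM. Without these the Susceptible difference was 1.02 and the Resilient one 1.14 (edgeR adjusted p 0.119 and 0.0289), so the call for Drd3 depends on whether they enter the fit.

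Of the peptide precursors, Pdyn separated the classes most. D1 Control libraries held 479, 594, 574, 608 and 614 CPM of Pdyn, and D2 Control libraries 43.7, 41.1, 155, 56.2 and 275 CPM. In Resilient mice the values were 603, 617, 543, 690.1 and 536 CPM in D1 against 39.2, 33.5, 40.9, 89.4 and 434 CPM in D2. In Susceptible mice they were 456, 729.7, 613, 541 and 471 CPM in D1 against 32.1, 30.9, 35.1, 32.5 and 37.1 CPM in D2. The classes overlapped in no condition, and the 5 D2 Susceptible libraries were the tightest group, with a coefficient of variation of 7.51% against 89.0% in D2 Control. The log2 difference between classes was 2.33 in Control (edgeR adjusted p 0.0106), 2.23 in Resilient (0.0147) and 4.07 in Susceptible (5.97e-05), or 5.02-, 4.69- and 16.8-fold. Without D2 Control replicate 5 the Control value was 2.97, and without D2 Resilient replicate 5 the Resilient value was 3.57.

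Tac1 differed less between classes than Pdyn in fold terms and was the most abundant of the 8 in D2 libraries. It was 701 to 988 CPM across D1 Control and Resilient libraries and 667 to 963 CPM in D1 Susceptible. In D2 Control it was 193, 207, 322, 285 and 557 CPM, in D2 Resilient 224, 237, 209, 229 and 792 CPM, and in D2 Susceptible 423, 373, 149.9, 237 and 175 CPM. D2 Resilient replicate 5 overlapped the D1 Resilient range, whose lowest library held 790.0 CPM. The log2 differences were 1.38, 1.38 and 1.53 (SE 0.334, 0.334 and 0.336), with edgeR adjusted p of 0.00858, 0.00850 and 0.00198, each about 2.61- to 2.89-fold. Without D2 Control replicate 5 the Control difference was 1.71, without D2 Resilient replicate 5 the Resilient one was 1.99, and without D2 Susceptible replicates 1 and 2 the Susceptible difference was 2.09.

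Isl1 was 23.9, 37.1, 37.5, 37.8 and 35.6 CPM in the D1 Control libraries, and in D2 Control 3.12, 3.46, 8.05, 5.03 and 20.3 CPM. D1 Control replicate 1 and D2 Control replicate 5 approached each other without overlap. The log2 difference of 2.10 (SE 0.631, edgeR adjusted p 0.0377) lay close to the threshold, and the call was lost on leaving out any of 8 of the 10 libraries compared (adjusted p up to 0.106). In Resilient mice the values were 33.7, 30.7, 36.1, 34.5 and 39.6 CPM in D1 and 2.49, 1.70, 3.90, 5.87 and 29.1 CPM in D2, without overlap. The difference of 2.02 (SE 0.630) had an edgeR adjusted p of 0.0531, and without D2 Resilient replicate 5 it was 3.34 (edgeR adjusted p 0.000161). In Susceptible mice D1 libraries held 27.8, 37.7, 36.1, 24.9 and 22.7 CPM of Isl1. The D2 libraries held 0.601, 0.869, 2.16, 5.94 and 2.69 CPM, and the log2 difference was 3.59 (SE 0.680, edgeR adjusted p 0.000592).

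Eya1 did not pass the test between classes in any condition. It was 5.32 ± 1.11 and 5.19 ± 0.671 CPM in D1 and D2 Control, 5.49 ± 0.899 and 5.08 ± 1.17 CPM in Resilient and 5.47 ± 0.892 and 4.31 ± 2.98 CPM in Susceptible (SD, n = 5). The 95% interval of the log2 difference ran from -0.56 to 0.63 in Control, -0.48 to 0.71 in Resilient and -0.25 to 0.95 in Susceptible. With all 30 libraries fitted, a log2 difference of 1 lay outside all 3 intervals. They share 1 estimate of spread over the 6 groups, although Eya1 was most spread in D2 Susceptible. For Susceptible the interval thus cannot settle whether such a difference exists. In D2 Susceptible were found the highest and the lowest Eya1 value of all 30 libraries, 9.19 CPM in replicate 1 and 1.16 CPM in replicate 2. Without replicate 1 alone the Susceptible difference was 0.85 (edgeR adjusted p 0.0173), and without both it was 0.58 (0.0649).

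Sfxn1, like Drd1, was higher in D1 in every condition, but by less than Drd1 in each. It was 127 to 212 CPM across the 15 D1 libraries. In D2 it was 34.0, 36.5, 63.6, 59.7 and 109 CPM in Control, 39.2, 35.2, 40.4, 49.1 and 143 CPM in Resilient and 96.4, 49.0, 26.5, 35.2 and 31.2 CPM in Susceptible. Within each condition the classes did not overlap, and D2 Resilient replicate 5 was the D2 library above the lowest D1 library overall. The log2 differences were 1.61, 1.57 and 1.86, with edgeR adjusted p of 0.00546, 0.00671 and 0.000902. The Control value was 1.94 without D2 Control replicate 5, the Resilient one 2.17 without D2 Resilient replicate 5, and the Susceptible one 2.50 without D2 Susceptible replicates 1 and 2.

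In counts, 5 of the 8 genes were higher in D1 than in D2 in Control, where 3.51% of all genes tested were. In Resilient mice it was 4 of 8, against 2.75% of all genes, and in Susceptible mice 6 of 8, against 10.5%. None was lower. Ranges did not overlap, D1 being higher, for 6, 4 and 6 of the 8 in Control, Resilient and Susceptible, as for 5.62%, 4.69% and 4.8% of all genes. The median log2 difference of the 8 was 1.74, 1.57 and 2.47, beside medians of -0.00, -0.00 and 0.02 over all genes tested. Without D2 Control replicate 5 and D2 Resilient replicate 5 the same 6 genes, Drd1, Pdyn, Tac1, Isl1, Chrm4 and Sfxn1, passed in each condition. These libraries were chosen after seeing the data and were the highest D2 libraries for these 6 genes. Larger class differences without them follow from that choice. Leaving out D1 Susceptible replicate 1 left the counts at 5, 4 and 6. With only the groups compared in the fit, Drd1, Pdyn and Tac1 in Resilient mice had edgeR adjusted p of 0.0939, 0.116 and 0.0626, and Chrm4 in Susceptible mice 0.0583. In these bulk samples, fewer cells of a type and less RNA per cell cannot be told apart. Whether the class difference of a gene differed between conditions was tested as the difference of the D1 and D2 changes, given below.

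**Figure D2:**
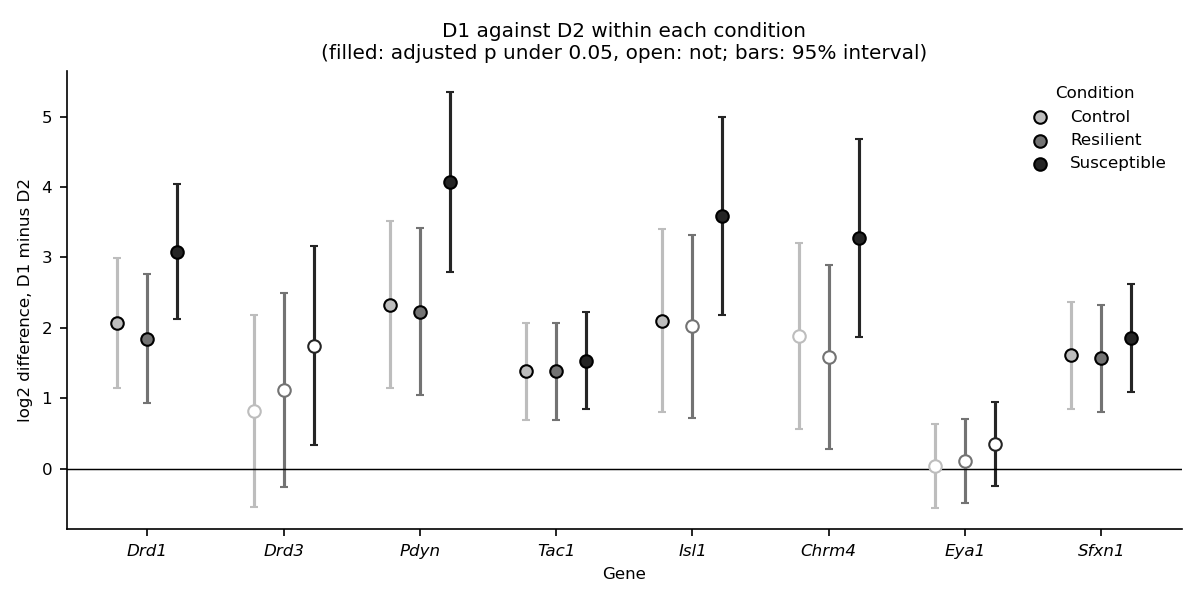
Difference between D1 and D2 libraries (log2, vertical axis) of each gene in Control, Resilient and Susceptible mice, with 95% intervals from edgeR. Filled points had an adjusted p under 0.05 and open points did not. Points for Pdyn run from 2.23 to 4.07, and those for Eya1 stay between 0.03 and 0.35.

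The D2 libraries were not alike in how much of the D1 identity genes they held. For each D2 library the 6 members that passed between classes in any condition (all but Drd3 and Eya1) were set against their mean in the 15 D1 libraries. Chrm4 had passed in Susceptible only, and Isl1 not in Resilient. The choice of the 6 thus rests on these same libraries. In D2 Resilient replicate 5 the median of the 6 was 84.7% of the D1 mean, with a range of 75.1% for Pdyn to 95.6% for Tac1. In D2 Control replicate 5 it was 55.2%, in D2 Control replicate 3 32.0% and in D2 Resilient replicate 4 23.3%. The other 11 D2 libraries lay between 8.76% and 17.1%. In the first 3 of these libraries all 6 genes were raised together, the lowest of the 6 being 75.1%, 42.6% and 24.4%.

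D2 Susceptible replicates 1 and 2 differed in kind. There Tac1 was 51.1% and 45.1% and Sfxn1 53.7% and 27.3% of the D1 mean, while Chrm4 was 2.79% and 0% and Isl1 1.82% and 2.63%. The low members and the high members thus came from the same libraries, the pair with the fewest detected genes. Whether their smaller number of detected genes has a part in these values was not tested.

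**Figure D3:**
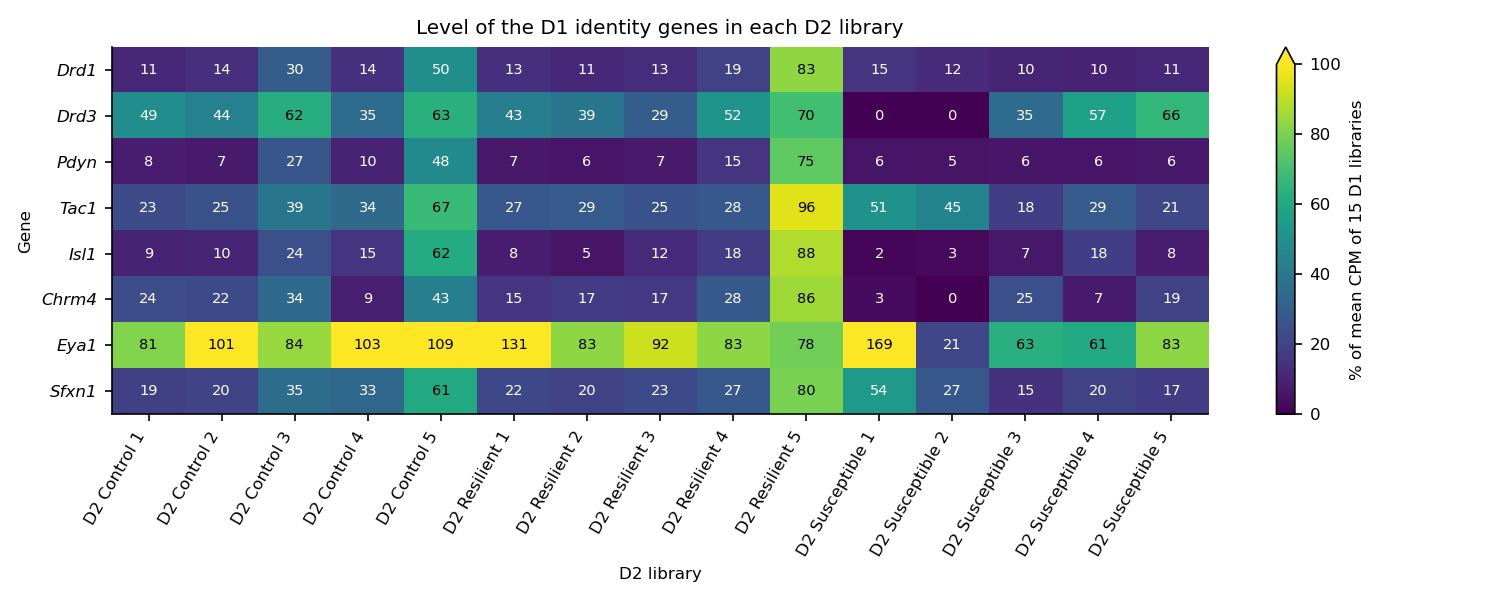
Level of each gene (rows) in each D2 library (columns) as a percentage of its mean CPM in the 15 D1 libraries; the colour scale ends at 100%, and higher values share its last colour. D2 Resilient replicate 5 lies between 69.7% (Drd3) and 95.6% (Tac1), and D2 Susceptible replicates 1 and 2 hold both near-zero and raised genes.

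The D2-class markers moved the other way in the same libraries. Their 5 genes summed to 4867 CPM in D2 Resilient replicate 5, where the 8 D1 identity genes summed to 1860 CPM (1741 to 2611 CPM in D1 libraries). In D2 Control replicate 5 the sums were 7287 and 1237 CPM, and in D2 Control replicate 3 9824 and 718 CPM. The other 12 D2 libraries held 281.5 to 637 CPM of the D1 identity genes. D2 Resilient replicate 5 also had the lowest endothelial marker sum of the D2 libraries, 56.6 CPM against 139 to 319.9 CPM, with 13.3 to 36.7 CPM in D1. Its cholinergic marker sum of 16.1 CPM and that of the GABAergic interneuron markers, 184 CPM, lay above the D2 Resilient medians of 4.00 and 90.5 CPM. The part of these other markers in the levels of the D1 identity genes was not tested.

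**Figure D4:**
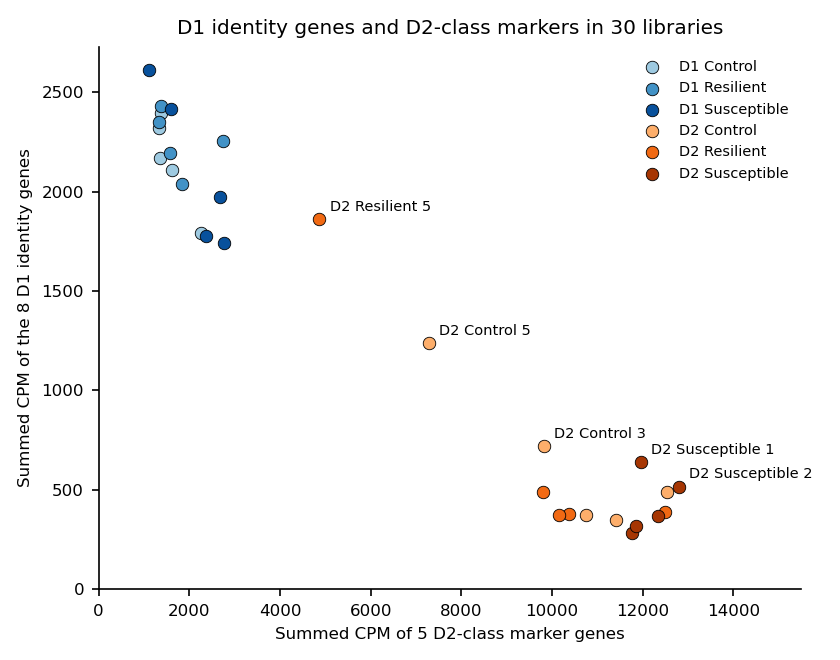
Summed CPM of the 8 D1 identity genes (vertical) against summed CPM of 5 D2-class markers (horizontal) for all 30 libraries, coloured by group. D2 Resilient replicate 5 (4867 and 1860 CPM) and D2 Control replicate 5 (7287 and 1237 CPM) lie between the D1 and D2 clusters.

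No difference between stress groups was detected for the D1 identity genes in D1 libraries. In each of the 3 comparisons 0 of 8 genes passed, as did 0% of all genes tested by edgeR. An unadjusted p under 0.05 was reached by 0 of 8, beside 2.4% of all genes for Susceptible against Control, 2.6% for Resilient against Control and 3.49% for Susceptible against Resilient. DESeq2 also called 0 of the 7 for which it gave an adjusted p. Drd1 was 494 ± 76.9 CPM in Control, 501 ± 54.9 in Resilient and 494 ± 107 in Susceptible (SD, n = 5). The 3 groups overlapped. The log2 difference of Drd1 between Susceptible and Control was -0.00 (95% interval -0.89 to 0.88), and between Resilient and Control 0.02 (-0.86 to 0.91). Over the 8 genes and the 3 comparisons the differences ran from -0.22 (Isl1, Susceptible against Resilient) to 0.26 (Drd3, Susceptible against Control). The Drd3 difference was -0.08 without D1 Susceptible replicate 1 and 0.58 without D1 Control replicate 1. The intervals give the size of change that this fit could miss. Each gene has 1 estimate of spread from all 30 libraries, D2 included. The coefficient of variation of Drd1 was 15.4% over the 15 D1 libraries and 94.8% over the 15 D2 libraries. The D1 intervals thus do not measure the spread of the D1 libraries alone. They were narrowest for Eya1 (-0.55 to 0.64 in Susceptible against Control) and Tac1 (-0.73 to 0.62), and widest for Drd3 (-1.10 to 1.63). D1 Susceptible libraries were more spread than the other D1 groups for Drd1, Pdyn, Tac1, Isl1 and Sfxn1. Replicates 2 and 3 were highest in all 5 genes. The D2-class markers were lowest in these replicates. Penk was 915 and 1322 CPM there, and 2237, 2137 and 1902 CPM in D1 Susceptible replicates 1, 4 and 5. Of 5 D2-class markers, 5 had higher values in D1 Susceptible than in D1 Control (median log2 0.47), and 0 passed. Their part in the values of the D1 identity genes was not tested.

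**Figure D5:**
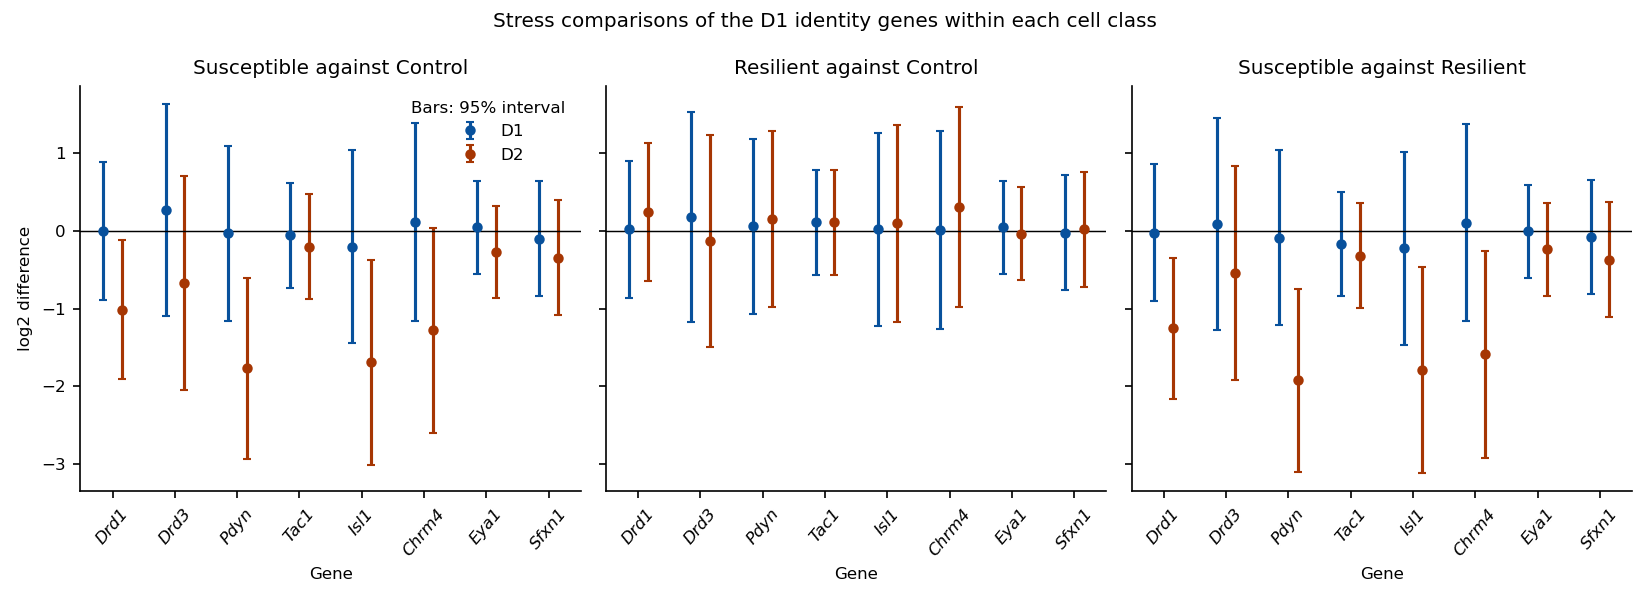
Stress comparisons within D1 (blue) and D2 (orange) libraries, as log2 differences (vertical axis) with 95% intervals from edgeR, for each gene. D1 points stay between -0.22 and 0.26; D2 points fall to -1.77 (Pdyn, Susceptible against Control) and -1.92 (Pdyn, Susceptible against Resilient).

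In D2 libraries 0 of the 8 genes passed in any of the 3 stress comparisons, where 0.00516% (Susceptible against Control), 0% (Resilient against Control) and 0.0516% (Susceptible against Resilient) of all genes did. Values were lower in Susceptible than in Control for 8 of 8 genes, with a median log2 difference of -0.84 beside -0.03 over all genes. Markers of other cells also had lower values there, 5 of 5 GABAergic interneuron markers with a median of -0.88 (smallest edgeR adjusted p 0.0526) and 4 of 5 cholinergic ones with -1.05, while 5 of 5 D2-class markers had higher values (median 0.20), and 0 genes of these lists passed. The summed CPM of the GABAergic markers was 68.1 to 95.9 in D2 Susceptible and 79.0 to 276 in D2 Control. The cholinergic sum was 2.17 to 3.13 and 2.35 to 6.94 CPM, with 3 of 5 genes at 0 in each of D2 Susceptible replicates 1 and 2. Their part in the values of the D1 identity genes was not tested. Pdyn had the largest difference, -1.77 (SE 0.566, unadjusted p 0.00454, edgeR adjusted p 0.180), and all 5 D2 Susceptible libraries lay below all 5 D2 Control libraries, as for 0.878% of all genes. Drd1 (-1.01, 95% interval -1.91 to -0.12) and Isl1 (-1.69, -3.01 to -0.37) were the others with an unadjusted p under 0.05, which makes 3 of 8 beside 15.7% of all genes. DESeq2 called 0 of the 7 it gave an adjusted p for.

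Against Resilient the D2 Susceptible values were again lower for 8 of 8 genes, with a median of -0.90. Pdyn was at -1.92 (edgeR adjusted p 0.0864), Isl1 at -1.79 (0.132), Chrm4 at -1.59 (0.180) and Drd1 at -1.25 (0.123), and these 4 had an unadjusted p under 0.05, as did 19.1% of all genes. Tac1 (-0.32), Sfxn1 (-0.37) and Eya1 (-0.24) lay nearer 0. Both comparisons share the D2 Susceptible libraries. In this comparison 5 of 5 GABAergic interneuron markers (median -0.46) and 5 of 5 cholinergic ones (-1.56) had lower values too. Resilient against Control in D2 gave -0.13 to 0.31 over the 8 genes, and 0 of 8 had an unadjusted p under 0.05, beside 4.2% of all genes. These values moved to either side with 1 library. Without D2 Resilient replicate 5, Isl1 was at -1.20, Pdyn at -1.17 and Drd1 at -0.74, and without D2 Control replicate 5 they were at 0.81, 0.78 and 0.71.

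The D2 differences of Susceptible mice were smaller for most genes without the libraries that stood between the classes. For Drd1, Pdyn, Tac1, Isl1, Chrm4 and Sfxn1 these were the 2 highest D2 libraries, so less negative differences follow from leaving them out. Without D2 Control replicate 5 and D2 Resilient replicate 5, chosen after seeing the data for their low D2-class markers, Pdyn in Susceptible was at -1.14 against Control and -0.60 against Resilient (edgeR adjusted p 0.244 and 0.325). Isl1 was at -0.99 and -0.49, Chrm4 at -1.03 and -0.84, Drd1 at -0.55 and -0.28, and Sfxn1 at -0.03 and 0.21. Tac1 changed sign, to 0.11 and 0.27. Leaving out D2 Susceptible replicates 1 and 2 in their place gave Pdyn -1.72 and -1.87, Drd1 -1.18 and -1.41, Isl1 -1.17 and -1.25, Chrm4 -0.64 and -0.94, and Drd3 0.05 and 0.18. Chrm4 passed against Resilient when D2 Susceptible replicate 3 was left out (-2.13, edgeR adjusted p 0.0492), and at no other setting run.

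Tests of whether the stress difference itself differed between classes found 0 of 8 genes in each of 3 comparisons, as for 0% of all genes. For Susceptible against Control the D1 minus D2 difference was 1.74 for Pdyn (95% interval 0.13 to 3.35, unadjusted p 0.0355, edgeR adjusted p 0.637) and 1.01 for Drd1 (-0.25 to 2.27). For Susceptible against Resilient it was 1.84 for Pdyn (0.22 to 3.45, edgeR adjusted p 0.338) and 1.23 for Drd1 (-0.03 to 2.49). Without D2 Control replicate 5 the former values were 1.12 for Pdyn and 0.56 for Drd1, and without D2 Resilient replicate 5 the latter were 0.51 and 0.26. Each library was the highest of its group for both genes, so smaller values follow from leaving it out. Pdyn was the gene with an unadjusted p under 0.05 in these comparisons, where 7.79% and 12.4% of all genes had one. For Resilient against Control the values lay between -0.30 and 0.30 for all 8 genes, and 0 of 8 had an unadjusted p under 0.05, beside 4.99% of all genes. Without D2 Resilient replicate 5 they were 1.24 for Pdyn, 1.23 for Isl1 and 0.77 for Drd1, and without D2 Control replicate 5 -0.72, -0.78 and -0.68.

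Within each class, Drd1 varied from library to library together with some of the other members. Correlations of log2 CPM with Drd1 were computed over the 15 libraries of a class, 14 relations in all, with permutation p-values adjusted by Benjamini-Hochberg. Among D1 libraries Pdyn (r 0.88, rho 0.83, permutation adjusted p 0.000210), Tac1 (r 0.80, rho 0.72, permutation adjusted p 0.00138), Sfxn1 (r 0.78, rho 0.83, permutation adjusted p 0.00138) and Isl1 (r 0.71, rho 0.52, permutation adjusted p 0.00541 for r and 0.0848 for rho) rose and fell with Drd1. Without the 2 libraries farthest from the Drd1 median, D1 Susceptible replicates 2 and 5, r was 0.82, 0.71, 0.83 and 0.60. Centred on group means it was 0.89, 0.84, 0.79 and 0.76. Chrm4 (r 0.28, rho 0.39), Eya1 (r 0.18, rho 0.23) and Drd3 (r -0.40, rho -0.41) did not pass, with permutation adjusted p of 0.395, 0.510 and 0.191 for r and 0.174, 0.403 and 0.167 for rho. All libraries were scaled by 1 factor each, which the genes of a library share.

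Among D2 libraries the same 4 genes passed by r, Pdyn at 0.97 (rho 0.69), Sfxn1 at 0.86 (rho 0.92), Tac1 at 0.84 (rho 0.69) and Isl1 at 0.77 (rho 0.50). Their permutation adjusted p for r was 0.000210, 0.000980, 0.00138 and 0.00140, and for rho 0.0144, 0.000140, 0.0144 and 0.0927. Without D2 Resilient replicate 5 and D2 Control replicate 5, the pair farthest from the median, r fell to 0.90 for Pdyn, 0.63 for Sfxn1, 0.46 for Tac1 and 0.38 for Isl1. Over the 13 libraries left, Pdyn passed by r (permutation adjusted p 0.00336) but not by rho (rho 0.52, permutation adjusted p 0.130), and Sfxn1 by rho (0.88, permutation adjusted p 0.00145) but not by r (permutation adjusted p 0.0622). Tac1 and Isl1 passed by neither. Eya1, by rho, passed there (0.71, permutation adjusted p 0.0247). Centred on group means, r over the 15 D2 libraries was 0.97, 0.87, 0.86 and 0.72 in the same order. Chrm4 (r 0.41, rho 0.45), Drd3 (r 0.24, rho 0.26) and Eya1 (r 0.17, rho 0.53) did not pass, with permutation adjusted p of 0.184, 0.449 and 0.508 for r and 0.126, 0.382 and 0.0848 for rho. Without D2 Susceptible replicates 1 and 2, which held few or no counts of Chrm4 and Drd3, r was 0.81 for Chrm4 (permutation adjusted p 0.00103) and 0.58 for Drd3 (permutation adjusted p 0.0490), and 6 members passed by r.

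The genes whose pattern over all 30 libraries was most like that of a member were ranked by r of log2 CPM among 12394 genes, as a description. Slc35d3, an orphan nucleotide-sugar transporter family gene, came first for Drd1 (r 1.00), Pdyn (0.99) and Tac1 (0.95) and second for Sfxn1 (0.96). For Drd1 it held within classes too, at 0.95 over the 15 D1 and 0.98 over the 15 D2 libraries. Lingo2 (r 0.99, 0.75 within D1) and Cntnap3 (0.98, 0.77 within D1) were next for Drd1. Lingo2 and Gfra1 followed for Pdyn (0.99 and 0.98, and 0.58 and -0.17 within D1). Cntnap3 and Lingo2 did for Tac1 (0.95 and 0.94, and 0.44 and 0.52 within D1). For Sfxn1 the others were Cntnap3 and Atp6ap1l (0.97 and 0.95, the former first, and each 0.58 within D1). For Isl1 the genes were Gnb4, Zfp521 and Erbb4 (each 0.95, and 0.50, 0.33 and 0.10 within D1). For Chrm4 they were Moxd1, Galnt18 and Gprasp2 (0.95, 0.95 and 0.94, and -0.24, 0.66 and 0.07 within D1). An r over all 30 libraries includes the difference between the classes. Nek10, AW551984 and Serpinb1b for Drd3 (0.95 to 0.96) and Inca1, Phtf1os and Efcab10 for Eya1 (0.84 to 0.86) were more like them within D2 (0.88 to 0.99) than within D1 (0.06 to 0.85).

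Of 5 other genes used as D1-class markers, Slc35d3 and the zinc-finger gene Zfp521 were higher in D1 in all 3 conditions, by log2 2.13, 2.04 and 3.05 (edgeR adjusted p 0.00305, 0.00423 and 6.44e-05) and by 1.84, 1.70 and 2.66 (0.000794, 0.00159 and 8.45e-06). Ebf1, a transcription factor of D1 neuron development, passed in Control (1.36, edgeR adjusted p 0.0356) and was at 1.23 and 0.94 in Resilient and Susceptible (0.0730 and 0.0941). Foxp2 did not pass in any condition (0.41, 0.53 and -0.16). Tshz1 was lower in D1 Susceptible than in D2 Susceptible (-1.52, edgeR adjusted p 0.00254), where D2 Susceptible replicates 1 and 2 held 730.1 and 650.1 CPM and the other 3 142 to 206 CPM. The count was thus 3 higher in Control, 2 in Resilient, and 2 higher and 1 lower in Susceptible, with list medians of 1.36, 1.23 and 0.94. Over all genes tested, 3.51%, 2.75% and 10.5% were higher in D1. In the stress comparisons within either class 0 of these 5 passed. The 5 D2-class markers were lower in D1 in all 3 conditions. In Control, Resilient and Susceptible the log2 differences were -2.60, -2.35 and -2.27 for Drd2, -2.99, -2.57 and -2.62 for Adora2a and -2.70, -2.43 and -2.55 for Penk. They were -2.28, -2.15 and -1.82 for Gpr6 and -1.73, -1.67 and -2.02 for Sp9.

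Of 14 genes that couple the D1 receptor to cyclic AMP signalling, 0 passed in Control and Resilient and 2 were higher in D1 Susceptible, the protein kinase A catalytic subunits Prkaca (log2 0.30, edgeR adjusted p 0.0324) and Prkacb (0.24, 0.0369). That is 2 of 14 where 10.5% of all genes were higher in D1, a share near that of all genes. Their list medians were 0.02, -0.03 and 0.14. Of 7 genes that process the Pdyn and Tac1 precursors or serve as receptors for the peptides, 3 were higher in D1 Control, 0 in Resilient and 4 in Susceptible, with medians of 0.52, 0.19 and 0.58, where 3.51%, 2.75% and 10.5% of all genes were higher. The prohormone convertase Pcsk1 was higher by 0.92 and 0.95 in Control and Susceptible (edgeR adjusted p 0.000409 and 0.000174), and the amidating enzyme Pam by 0.45 and 0.58 (0.00828 and 0.000465). Oprk1, the kappa receptor for dynorphin, passed in Control (0.56, edgeR adjusted p 0.00623). Tacr1 and Tacr3, receptors for tachykinins, passed in Susceptible (0.83 and 2.63, edgeR adjusted p 0.0136 and 0.0111). In the 6 stress comparisons 0 genes of either list passed.

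Markers of other cells also differed between the classes. Over all 19368 genes tested, 1608, 1288 and 4621 passed in Control, Resilient and Susceptible, of which 679, 532 and 2033 were higher in D1. Of 5 GABAergic interneuron markers 4 were higher in D1 in each condition, with sums of 278 to 456 CPM in D1 and 68.1 to 276 CPM in D2 libraries. Cortical glutamatergic markers were higher in D1 for 4, 5 and 4 of 6 genes (506 to 974 against 171 to 570.4 CPM), and 6 of 6 endothelial and 3 of 4 mural markers were lower in each. In Control, Resilient and Susceptible 3, 5 and 4 of 6 astrocyte markers, 0, 2 and 4 of 6 oligodendrocyte markers and 0, 2 and 0 of 6 microglia markers were lower in D1, and 0, 0 and 2 of 5 cholinergic markers were higher. Their part in the levels of the D1 identity genes was not tested.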

How the data were processed

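Per the submitters' processing notes, reads were handled with HISAT2 and HTSeq on GRCm38 (mm10). Which versions ran, and whether counting used strand, was not given in the sources used here. What the authors deposited are unnormalised counts, by gene, for 30 libraries of nucleus accumbens polyribosome RNA from SMART-Seq v4 kits (10 ng RNA each), per the labels' protocols. The series table and the 30 library files were identical. The 5 summary lines for reads assigned to no gene (10.1% to 53.3% of reads) stayed out of library sizes. Symbols, coordinates and exon lengths came from GENCODE M21, which matched 55154 of 55335 identifiers.

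Genes were kept by filterByExpr (minimum count 10, minimum total 15), scaled by TMM and tested with the edgeR 4.0.16 quasi-likelihood F test in R 4.3.3, in 1 model of 6 groups with 12 comparisons, each adjusted by Benjamini-Hochberg over 19368 genes at 0.05. CPM uses TMM-scaled library sizes, RPKM divides it by exon length, and log2 CPM has a prior count of 1. Permutation p-values for correlations used 100000 two-sided permutations. A count of 0 allowed up to 3 counts, 0.0430 to 0.304 CPM by library. This covers counting error only, since the libraries carry no molecular identifiers.

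Groups and replicate numbers came from the titles. The members and gene lists were chosen with earlier results of these data known. All 8 members are named, with all other D1-class genes and D2-class markers (1 of 6, Gpr52, not analysed here), up to 4 called genes per signalling list and comparison, and for each member the 3 genes of at least 1 CPM with the highest r. Alternatives were DESeq2 1.42.0, its size factors, scaling by shared medium spiny neuron genes, no filter, a replicate block, limma 3.58.1 voom with quality weights, only the groups compared, and leaving out libraries. The edgeR fit was also run on simulated data that were less spread than these libraries, so that run does not show how the fit performs on them. Male and human data of the series description were not analysed here.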

Additional observations from a re-analysis of the deposited data

Results flagged for a closer look

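Groups of 5 libraries were searched for a highest or lowest value whose gap to its neighbour was over Dixon's 95% critical share of the group's range. Chance flags about 1 in 20 groups, and 9 of 48 were found. The 48 are not independent, since the genes were measured in the same libraries, so the count is no test of an excess. D2 Resilient replicate 5 gave 6 of them, as the highest library of its group: Drd1 at 414 CPM (next 95.2), Pdyn at 434 CPM (next 89.4), Tac1 at 792 CPM (next 237), Isl1 at 29.1 CPM (next 5.87), Chrm4 at 41.7 CPM (next 13.7) and Sfxn1 at 143 CPM (next 49.1). Isl1 was also far above its group in D2 Control replicate 5, at 20.3 CPM against 8.05 CPM in the next, and far below it in D1 Control replicate 1, at 23.9 CPM against 35.6 CPM. Eya1 was far above the rest in D2 Resilient replicate 1, at 7.10 CPM against 5.01 CPM. The causes were not tested.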

How the results depend on the processing

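The 15 member differences between classes that passed kept their direction under every alternative run, and 1 of the 24 class differences, that of Eya1 in Control, changed sign. Of 72 differences in stress comparisons and their D1 minus D2 contrasts, none of which passed, 46 changed sign under an alternative and 1 passed, that of Chrm4 without D2 Susceptible replicate 3. For D1 against D2 in Resilient mice, where 4 members passed, 7 did under voom with quality weights, 7 without D2 Susceptible replicates 1 and 2, 7 without D1 Susceptible replicate 1, D2 Resilient replicate 5 and D2 Susceptible replicates 1 and 2, and 2 with only the groups compared. Leaving out 1 library at a time gave 4 to 6 members in Control, 4 to 6 in Resilient, 6 to 7 in Susceptible, 0 to 1 in D2 Susceptible against Resilient, and 0 to 0 in the other 8 comparisons. The number of members correlated with Drd1 stayed at 4 to 4 over D1 libraries and 4 to 5 over D2 libraries when 1 library was left out, and over D2 libraries was 1 without D2 Control replicate 5 and D2 Resilient replicate 5 and 6 without D2 Susceptible replicates 1 and 2. DESeq2 gave Pdyn no adjusted p. Over all genes, 1608, 1288 and 4621 passed between classes in Control, Resilient and Susceptible, and the alternatives other than single libraries left out gave 1318 to 5491, 1130 to 3638 and 915 to 7425. In D2, 1 gene passed for Susceptible against Control and 10 for Susceptible against Resilient, where DESeq2 called 255 and 976. Leaving out 1 library gave 0 to 828 and 0 to 1964, the highest of both without D2 Susceptible replicate 3. The cause of these changes was not tested. Scaling by shared medium spiny neuron genes moved the median of all genes between D1 and D2 by 0.27, 0.24 and 0.31 on the log2 scale in Control, Resilient and Susceptible, and the members moved with it. Of 75 pairs of same-numbered libraries, 13 correlated over 0.1 (-0.41 to 0.37), and 5 of 30 libraries correlated best with their own number. Pairs of unlike number were not counted in the same way, so these values do not settle whether the numbers pair libraries. With the replicate block, 5, 5 and 6 members passed between classes in Control, Resilient and Susceptible and 0 in the stress comparisons. Drd3 and Eya1 both had low counts. In D1 Susceptible against Control the SE was 0.669 for Drd3, with the widest interval, and 0.293 for Eya1, with the narrowest. The 5 libraries a group limit the precision of the stress comparisons. So does the 1 estimate of spread per gene, which all 6 groups share.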
